A study of Mus musculus with 12 samples.

Results

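Homeobox and Pax genes encode transcription factors that give cells of the embryo their regional and type identity. The 46 genes described here lie outside the Hox clusters and were taken by name from a list of symbols, which was drawn up with earlier results of these data known. Of these, 40 were listed in at least 1 of the 4 deposited tables, among 14557 genes listed in any. Lhx5, Meox1, Pax3, Pax5, Pax8 and Pitx1 were listed in none. Every transcript listed in a table had at least 5 estimated counts in at least 3 of its 6 libraries. Estimated counts of a gene's transcripts were summed.

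RNA was measured in cultured PDGFB mouse neural stem cells, called DIPG cells by the submitters, after a glioma of the pons in children. The 4 groups, of 3 libraries each, were K27M cells with EPZ6438, K27M cells with DMSO, wild-type cells with EPZ6438 and wild-type cells with DMSO. K27M cells expressed histone H3.3 with methionine in place of lysine at position 27, and wild-type cells expressed unmutated H3.3. EPZ6438 blocks the enzyme EZH2 and was given at 3 µM for 12 days, and DMSO is its solvent. All groups carry the PDGFB label and grew in neural stem cell medium with EGF and basic FGF. Replicates carry numbers only, with no word on whether each was its own culture, and the p-values therefore reflect the scatter of these libraries, which may be technical. The sources used here give neither the way the histone was expressed nor the number of clones.

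The homeodomain and the paired domain are DNA-binding domains, after which the homeobox and Pax families are named. In the embryonic brain the Otx and Emx factors mark anterior regions, while En, Gbx and Lmx1 factors act at the boundary of midbrain and hindbrain. Pax, Nkx6, Lhx and Isl factors set dorsal and ventral domains and neuron types in hindbrain and spinal cord. Alx, Prrx and Shox factors, Six2, Pax1 and Pax9 also act in mesenchyme, skeleton and somites. Many such genes have CpG-rich promoters and are textbook targets of PRC2, the complex in which EZH2 methylates lysine 27 of histone H3 and which keeps them silent outside their domain. K27M histone is known to lower that methylation over much of the genome.

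Library depth was 7.91 to 24.11 megacounts of estimated counts. All 12 neural stem cell markers on the list used here were above 0 counts in every group, with summed levels of 7456 to 7583 CPM (counts per megacount of the library) in K27M cells with EPZ6438, 7379 to 7548 in K27M cells with DMSO, 7397 to 7574 in wild-type cells with EPZ6438 and 8079 to 8570 in wild-type cells with DMSO. With EPZ6438 5 of the 12 fell and 3 rose in K27M cells, and 6 fell and 2 rose in wild-type cells. The largest fall was that of Nr2e1, a factor of neural stem cell maintenance, by 1.40 on the log2 scale in K27M cells and 1.30 in wild-type cells. The largest rise was that of Prom1, by 1.10 in K27M cells and 1.51 in wild-type cells. The part of these changes in the results was not tested. Replicate 1 of the wild-type DMSO libraries was unlike the other 2, with a chi-square per gene of 25.84 and 21.71 against replicates 2 and 3, which differed from each other by 3.14. Its deviations also followed GC content (Spearman -0.75 across genes, which are not independent replicates), as did those of other libraries, at -0.57 to 0.63.

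The promoter windows of 4 members are shown because these genes stand for the main patterns below. Isl1 had 0 counts in both DMSO groups and was detected with EPZ6438 in both genotypes. En1 and Pax9 were low in DMSO, lowest in K27M cells. Meis2 was abundant in every group and fell with EPZ6438 in K27M cells. Each window holds 300 bases around a start listed for the gene, most of them upstream, from RefSeq on GRCm38.p6. For each gene the first window listed was used. Sequences are written 5′ to 3′ on the gene's strand, with CG dinucleotides in capitals. The windows lie at chr13:116309639-116309938 (minus strand, Isl1), chr1:120602237-120602536 (plus strand, En1), chr12:56695221-56695520 (plus strand, Pax9) and chr2:116064570-116064869 (minus strand, Meis2). Those of Isl1 and En1 span the outer start of the gene. Those of Pax9 (gene at chr12:56691693-56712824) and Meis2 (gene at chr2:115861264-116067537) lie inside the gene, so their CpG counts are not those of its outer start.
Isl1: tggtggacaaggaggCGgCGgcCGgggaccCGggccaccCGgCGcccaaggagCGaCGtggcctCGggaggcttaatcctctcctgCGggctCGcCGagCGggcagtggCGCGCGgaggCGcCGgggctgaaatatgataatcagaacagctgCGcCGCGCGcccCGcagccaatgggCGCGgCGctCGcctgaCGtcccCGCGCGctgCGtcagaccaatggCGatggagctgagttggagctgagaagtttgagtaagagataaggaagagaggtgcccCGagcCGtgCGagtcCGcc
En1: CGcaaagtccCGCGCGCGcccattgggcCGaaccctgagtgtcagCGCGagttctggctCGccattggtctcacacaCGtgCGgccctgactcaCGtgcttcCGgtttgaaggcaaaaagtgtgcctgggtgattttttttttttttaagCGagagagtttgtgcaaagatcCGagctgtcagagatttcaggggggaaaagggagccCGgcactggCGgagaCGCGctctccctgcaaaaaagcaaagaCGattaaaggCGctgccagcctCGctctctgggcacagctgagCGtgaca
Pax9: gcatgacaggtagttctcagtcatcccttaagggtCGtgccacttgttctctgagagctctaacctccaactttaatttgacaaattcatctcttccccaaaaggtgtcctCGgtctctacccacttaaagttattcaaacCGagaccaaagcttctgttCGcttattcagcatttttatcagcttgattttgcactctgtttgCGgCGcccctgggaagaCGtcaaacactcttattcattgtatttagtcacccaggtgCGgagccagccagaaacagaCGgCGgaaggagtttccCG
Meis2: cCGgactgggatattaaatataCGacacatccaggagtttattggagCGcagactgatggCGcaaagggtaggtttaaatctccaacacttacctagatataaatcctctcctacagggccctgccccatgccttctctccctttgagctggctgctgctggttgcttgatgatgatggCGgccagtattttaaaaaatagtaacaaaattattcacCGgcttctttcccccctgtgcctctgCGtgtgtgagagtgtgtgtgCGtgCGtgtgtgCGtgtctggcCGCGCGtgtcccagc
The Isl1 window held 37 CpG dinucleotides and the En1 window 23, while the Meis2 window held 13 and the Pax9 window 11. RefSeq windows were found for 32 of the 46 members, and their CpG counts ran from 6 to 40 with a median of 22.5. The median over all 27025 windows in the same table was 7.0. At least 15 CpG were present in 21 of the 32 member windows (65.6%) and in 35.2% of all windows. The homeodomain core motif TAATTA, which reads the same on both strands, was present in 4 member windows (12.5%), those of Emx2, Otx2, Msx2 and Prrx1, and in 5.31% of all windows. A match is a description of the letters and not a binding site.

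**Figure D1:**
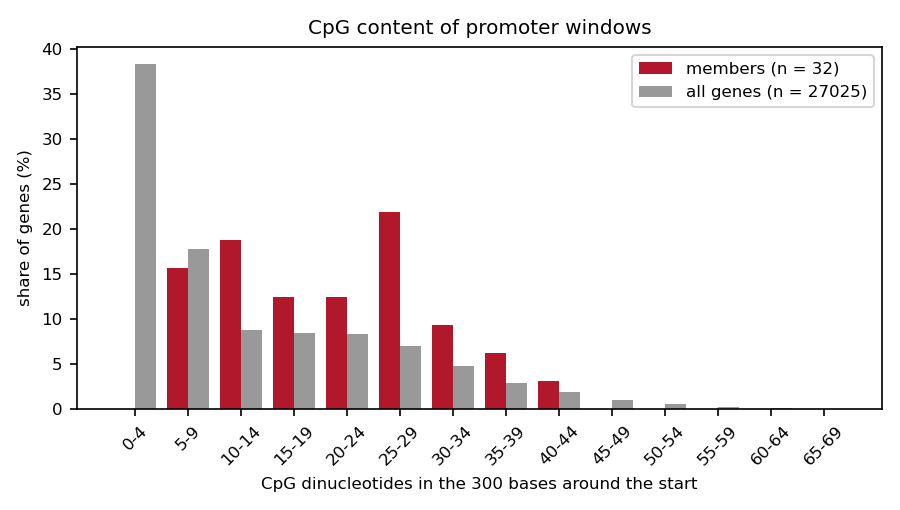
Share of promoter windows (%, vertical axis) by number of CpG dinucleotides in 300 bases around a start listed for the gene (horizontal axis). The 32 members with a window and all 27025 genes are shown. Member windows held 6 to 40 CpG, and their median of 22.5 lies above the 7.0 of all genes.

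Levels below are CPM on one scale over all 12 libraries. Per kilobase of transcript, Lhx2 at 30.1 and Meis2 at 27.7 CPM were the most abundant members in K27M cells with EPZ6438. In K27M cells with DMSO they were Meis2 at 37.5 and Pax6 at 23.8 CPM per kilobase. In wild-type cells with EPZ6438 they were Meis2 at 28.4 and Lhx2 at 24.1, and in wild-type cells with DMSO Meis2 at 24.8 and Pax6 at 17.9 CPM per kilobase. With EPZ6438 all 40 listed members had more than 3 counts over the 3 libraries in each genotype. In DMSO 30 of 38 listed members did so in K27M cells and 29 of 37 in wild-type cells. Listing needed at least 5 counts in at least 3 libraries, and members at 0 counts in DMSO were listed through their EPZ6438 libraries. The filter therefore largely sets this contrast, which is not read as a result. Lmx1b, Pax7, Isl1 and Alx1 had 0 counts in K27M DMSO libraries, and Lbx1, Lhx1, Isl1, Alx1 and Shox2 had 0 counts in wild-type DMSO libraries. In bulk RNA, more cells expressing a gene and more RNA per cell cannot be told apart.

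**Figure D2:**
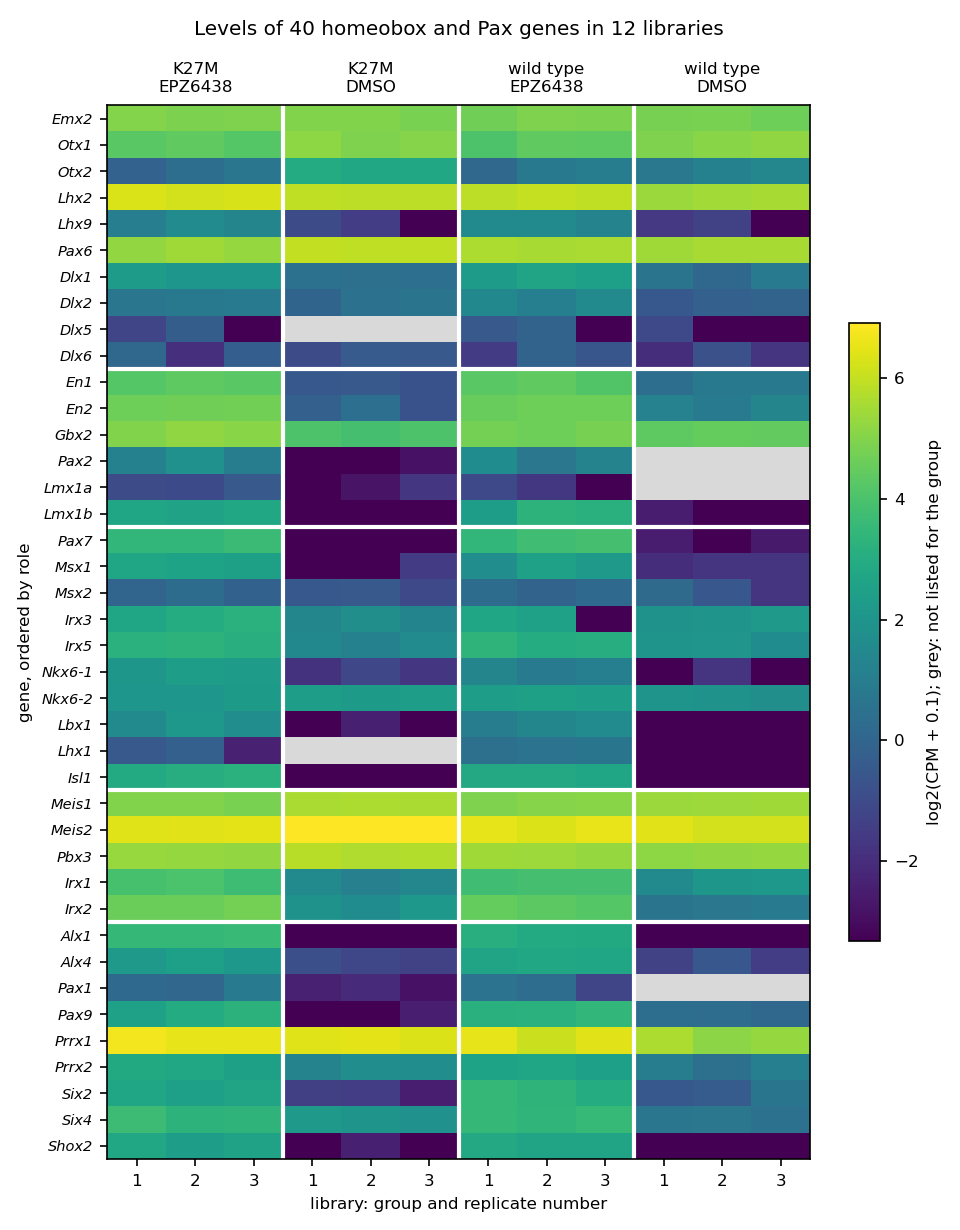
Level of the 40 listed members (rows, ordered by role) in each of the 12 libraries (columns), as log2(CPM + 0.1), with grey where a gene was not listed for that group. Isl1 and Alx1 are at the bottom of the scale in all 6 DMSO libraries and were detected in all 6 EPZ6438 libraries.

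EPZ6438 against DMSO asked how EZH2 inhibition changed these genes in each genotype. In K27M cells 26 of 37 tested members rose and 6 fell (background over 13503 tested genes 28.9% higher and 27.3% lower, 56.3% in all). In wild-type cells 26 of 35 rose and 2 fell (background over 12870 genes 21.4% higher and 20.7% lower, 42.1% in all). A member listed only through its EPZ6438 libraries had to be higher there, so these counts are not read as support. Among members with at least 5 counts in each DMSO library, 13 of 24 rose and 6 fell in K27M cells, and 15 of 23 rose and 2 fell in wild-type cells. Over all genes with at least 5 counts in each DMSO library, 27.9% rose and 28% fell in K27M cells (13189 genes), and 19.9% rose and 21.4% fell in wild-type cells (12465 genes). The median log2 fold change of these 24 and 23 members was 0.63 in K27M cells and 1.0 in wild-type cells, beside 0.00 and 0.03 over all genes with as many counts. The list was drawn up with earlier results of these data known. These shares and medians, and the shares by role group below, are therefore not read as support either. There were 23 members that rose in both genotypes. Irx3 rose in K27M cells and did not pass in wild-type cells, Dlx2 and Nkx6-2 rose in wild-type cells and did not pass in K27M cells, and Pax1, Pax2 and Lhx1 were each tested in 1 genotype. Both wild-type falls, Otx1 and Meis1, were also falls in K27M cells. Ezh2 itself had a log2 fold change of -0.39 in K27M cells (adjusted p = 5.59e-05) and 0.25 in wild-type cells (adjusted p = 0.0913). Its log2 fold change, K27M over wild type, was 0.79 in DMSO (adjusted p = 0.00197) and 0.15 under EPZ6438 (adjusted p = 0.264).

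K27M against wild-type H3.3 asked how levels differed between the cells of each genotype. With the number of clones not given, effects of the mutation and of clone or culture cannot be told apart. In DMSO 10 of 24 tested members were higher in K27M cells and 7 were lower, or 70.8% called beside 60.1% of all 13129 genes (29.8% higher, 30.4% lower), a share not read as particular to these genes. With the GC trend of the libraries removed the split was 13 higher and 3 lower. Under EPZ6438 2 of 36 tested members were higher in K27M cells and 0 lower by edgeR, beside 1.79% of 13060 genes called (0.567% higher, 1.23% lower). At an unadjusted p below 0.05, 5 were higher and 4 lower, and DESeq2 also called 2 higher and 0 lower. The difference between the genotypes' responses to EPZ6438, tested as an interaction, passed for 16 of 34 members, 6 with a larger response in K27M cells and 10 with a smaller or more negative one (background 36.3% of 13300 genes, 20.2% higher and 16.1% lower). This difference equals the genotype difference under EPZ6438 minus that in DMSO, so it shares libraries with both.

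**Figure D3:**
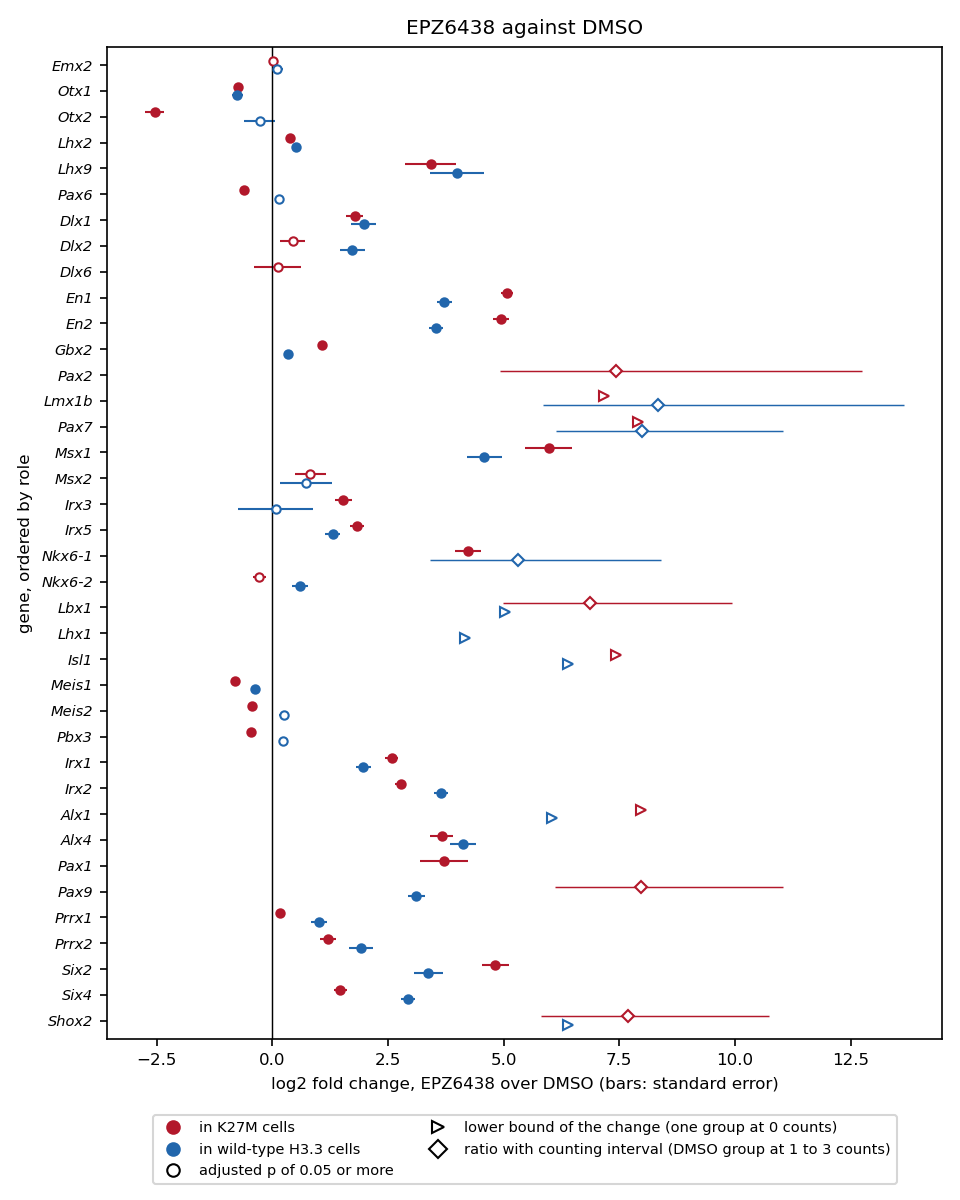
Log2 fold change of each tested member (rows, ordered by role), EPZ6438 over DMSO, in K27M cells (red, upper of each pair) and wild-type cells (blue, lower), with standard errors. Filled circles passed at an adjusted p below 0.05, triangles are lower bounds for genes with 0 counts in DMSO, and diamonds are ratios with 95% counting intervals for genes with 1 to 3. En1 and En2 lie farther right in K27M cells, and Six4 and Irx2 farther right in wild-type cells.

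The forebrain and sensory group holds 10 members, and of those tested with EPZ6438 3 of 9 rose and 3 fell in K27M cells, while 4 of 8 rose and 1 fell in wild-type cells. With at least 5 counts in each DMSO library, 2 of 8 rose and 3 fell in K27M cells, and 3 of 7 rose and 1 fell in wild-type cells. Over all such genes 27.9% rose and 28% fell in K27M cells, and 19.9% rose and 21.4% fell in wild-type cells. Counts this small are not read as particular to the group. Lhx2, a LIM-homeobox factor of cortical and retinal progenitors, had 79.2, 74.4 and 77.8 CPM in K27M cells with EPZ6438, 60.1, 58.9 and 59.2 CPM in K27M cells with DMSO, 59.8, 65.1 and 60.8 CPM in wild-type cells with EPZ6438 and 40.7, 44.9 and 47.4 CPM in wild-type cells with DMSO. Both EPZ6438 groups lay above their DMSO groups without overlap, and both K27M groups above the wild-type groups under the same treatment. It rose by 0.37 (SE 0.038, adjusted p = 2.49e-05) in K27M cells and by 0.51 (SE 0.077, adjusted p = 0.00242) in wild-type cells on the log2 scale. Lhx2 was also 1 of the 2 members higher in K27M cells under EPZ6438 (log2 fold change 0.30, SE 0.059, adjusted p = 0.0498). That call was lost without any single library except wild-type EPZ6438 replicate 2 (highest adjusted p = 0.235).

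Pax6, a paired-domain factor of cortical and retinal progenitors, moved with EPZ6438 in K27M cells. It had 38.0, 43.3 and 39.0 CPM in K27M cells with EPZ6438, 63.1, 60.3 and 60.1 CPM in K27M cells with DMSO, 49.5, 47.7 and 48.4 CPM in wild-type cells with EPZ6438 and 43.3, 47.1 and 47.7 CPM in wild-type cells with DMSO. The 3 K27M DMSO libraries were the highest of the 12, and the 3 K27M EPZ6438 libraries lay at the low end. Pax6 fell by 0.61 (SE 0.057, adjusted p = 1.19e-05) on the log2 scale in K27M cells, against a log2 fold change of 0.14 in wild-type cells (adjusted p = 0.156). The responses differed by -0.65 (SE 0.121, adjusted p = 0.00293), and in DMSO Pax6 was 1.37-fold higher in K27M cells (adjusted p = 0.00125).

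Otx2, a head-organizing factor also used by midbrain and retina, had 0.829, 1.18 and 1.54 CPM in K27M cells with EPZ6438, 7.82, 6.82 and 6.79 CPM in K27M cells with DMSO, 1.01, 1.65 and 1.93 CPM in wild-type cells with EPZ6438 and 1.59, 2.15 and 2.53 CPM in wild-type cells with DMSO. The K27M DMSO libraries alone stood high, above every other library. Otx2 was 3.49-fold higher in K27M than in wild-type cells in DMSO (log2 fold change 1.80, SE 0.170, adjusted p = 0.000951) and 5.83-fold lower with EPZ6438 than with DMSO in K27M cells (log2 fold change -2.54, SE 0.205, adjusted p = 4.56e-06). Its log2 fold change in wild-type cells was -0.27 (SE 0.334, adjusted p = 0.530). The difference of the responses was -1.93 (SE 0.520, adjusted p = 0.0157), a call lost without wild-type EPZ6438 replicate 3 (adjusted p = 0.0513).

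Otx1, the close relative of Otx2 in forebrain and cortex, fell in both genotypes. Its levels were 19.5, 21.4 and 18.6 CPM in K27M cells with EPZ6438, 35.5, 30.7 and 32.9 CPM in K27M cells with DMSO, 16.4, 21.0 and 20.5 CPM in wild-type cells with EPZ6438 and 30.7, 33.9 and 36.5 CPM in wild-type cells with DMSO. All 6 EPZ6438 libraries lay below all 6 DMSO libraries. The log2 fold change was -0.74 (SE 0.077, adjusted p = 2.73e-05) in K27M cells and -0.76 (SE 0.121, adjusted p = 0.00296) in wild-type cells, and the responses differed by 0.06 (SE 0.146, adjusted p = 0.758). Emx2, a factor of the dorsal telencephalon, averaged 30.7 ± 1.04 CPM in K27M cells with EPZ6438, 30.3 ± 1.17 in K27M cells with DMSO, 28.8 ± 2.67 in wild-type cells with EPZ6438 and 27.3 ± 1.76 in wild-type cells with DMSO (SD, n = 3 each) and passed in no comparison by the main edgeR test. In DMSO its log2 fold change, K27M over wild type, was 0.19 (adjusted p = 0.0735). That value passed with the GC trend removed (0.26, adjusted p = 0.0413), without wild-type DMSO replicate 1 (0.24, adjusted p = 0.0121) and by the authors' q-value (0.0283). Lhx9, a LIM-homeobox relative of Lhx2, averaged 2.46 ± 0.460 CPM in K27M cells with EPZ6438, 0.227 ± 0.211 in K27M cells with DMSO, 2.62 ± 0.302 in wild-type cells with EPZ6438 and 0.173 ± 0.154 in wild-type cells with DMSO (SD, n = 3 each). It rose 10.7-fold in K27M and 15.9-fold in wild-type cells (adjusted p = 0.000480 and 0.00212). Its log2 fold change in K27M cells, 3.42, was 4.16 without K27M DMSO replicate 1 and 2.82 without K27M DMSO replicate 3, and in wild-type cells, 3.99, it was 3.3 without wild-type DMSO replicate 3. In the authors' deposited table the q-value was 0.0825 in K27M and 0.0535 in wild-type cells. Other calls that did not pass by the authors' q-values are named at the end.

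The Dlx genes, factors of ventral forebrain interneurons, lie in neighbouring pairs. Dlx1 and Dlx2 are 9.4 kb apart on chromosome 2 with no coding gene between them. Dlx1 had 4.90, 4.03 and 4.07 CPM in K27M cells with EPZ6438, 1.30, 1.28 and 1.22 CPM in K27M cells with DMSO, 4.80, 6.26 and 5.44 CPM in wild-type cells with EPZ6438 and 1.44, 0.975 and 1.80 CPM in wild-type cells with DMSO. It rose 3.42-fold in K27M cells (adjusted p = 2.49e-05) and 3.93-fold in wild-type cells (adjusted p = 0.00141), with no overlap between EPZ6438 and DMSO. Dlx2 had 1.52, 1.66 and 1.81 CPM in K27M cells with EPZ6438, 0.880, 1.32 and 1.43 CPM in K27M cells with DMSO, 2.65, 2.01 and 2.84 CPM in wild-type cells with EPZ6438 and 0.606, 0.780 and 0.866 CPM in wild-type cells with DMSO. Dlx2 rose 3.32-fold in wild-type cells (adjusted p = 0.00286), with a log2 fold change of 0.44 in K27M cells (SE 0.265, adjusted p = 0.184). The responses of Dlx2 differed by -1.25 (SE 0.375, adjusted p = 0.0242), a call lost without K27M DMSO replicate 3 (adjusted p = 0.0575), while those of Dlx1 differed by -0.17 (SE 0.302, adjusted p = 0.683).

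Dlx5 and Dlx6, 9.8 kb apart on chromosome 6, were near the limit of detection. Dlx6 had 0.967, 0.158 and 0.723 CPM in K27M cells with EPZ6438, 0.417, 0.660 and 0.629 CPM in K27M cells with DMSO, 0.252, 0.863 and 0.567 CPM in wild-type cells with EPZ6438 and 0.152, 0.488 and 0.200 CPM in wild-type cells with DMSO. Its groups overlapped, and in the only comparison where it was tested, EPZ6438 in K27M cells, the log2 fold change was 0.12 (SE 0.508, adjusted p = 0.851). Dlx5 had 14 counts over the K27M libraries with EPZ6438, 17 over the wild-type libraries with EPZ6438 and 5 over those with DMSO, was not listed for K27M cells with DMSO, and was tested in no comparison.

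Among midbrain and hindbrain factors En1, En2 and Gbx2, the 3 with at least 5 counts in each DMSO library, rose with EPZ6438 in both genotypes, beside 27.9% of all such genes in K27M cells and 19.9% in wild-type cells. The other tested members, Lmx1b in both genotypes and Pax2 in K27M cells, were listed through their EPZ6438 libraries and so had to be higher there. En1, an engrailed factor of the boundary between midbrain and hindbrain, had 18.6, 20.5 and 19.3 CPM in K27M cells with EPZ6438, 0.602, 0.616 and 0.503 CPM in K27M cells with DMSO, 19.7, 21.1 and 17.6 CPM in wild-type cells with EPZ6438 and 1.21, 1.66 and 1.66 CPM in wild-type cells with DMSO. Levels under EPZ6438 overlapped between genotypes, while in DMSO the K27M libraries lay below the wild-type libraries. En1 rose 33.6-fold in K27M cells (log2 fold change 5.07, SE 0.134, adjusted p = 2.81e-09) and 13.1-fold in wild-type cells (3.72, SE 0.162, adjusted p = 1.76e-05). The responses differed by 1.38 (SE 0.222, adjusted p = 0.00129), and in DMSO En1 was 2.54-fold lower in K27M cells (adjusted p = 0.00457). The DMSO call was lost with the GC trend removed together with a replicate block (log2 fold change -0.97, adjusted p = 0.0529). The authors' q-value for it was 0.444.

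En2, the paralogue of En1 in the same region, had 25.3, 25.9 and 26.4 CPM in K27M cells with EPZ6438, 0.787, 1.23 and 0.503 CPM in K27M cells with DMSO, 23, 25.2 and 25.1 CPM in wild-type cells with EPZ6438 and 2.20, 1.76 and 2.40 CPM in wild-type cells with DMSO. Both DMSO groups were far below both EPZ6438 groups, and the K27M libraries lay below the wild-type libraries in DMSO. With EPZ6438 the genotypes overlapped on the scale of their own comparison (log2 fold change 0.08, adjusted p = 0.629). En2 rose 30.6-fold in K27M cells (adjusted p = 1.39e-08) and 11.6-fold in wild-type cells (adjusted p = 1.56e-05), and the responses differed by 1.43 (SE 0.281, adjusted p = 0.00357). In DMSO En2 was 2.47-fold lower in K27M cells (log2 fold change -1.30, SE 0.345, adjusted p = 0.0187). That call was lost with the GC trend of the libraries removed (-0.96, adjusted p = 0.0691), without K27M DMSO replicate 1 (adjusted p = 0.0635) and without wild-type DMSO replicate 3 (0.0686).

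Gbx2, which sets the anterior border of the hindbrain, was the most abundant member of this group. It had 31.2, 37.1 and 33.5 CPM in K27M cells with EPZ6438, 16.7, 14.9 and 16.4 CPM in K27M cells with DMSO, 27, 25.0 and 28 CPM in wild-type cells with EPZ6438 and 20.5, 22.3 and 21.8 CPM in wild-type cells with DMSO. The 4 groups did not overlap. It rose 2.11-fold in K27M cells (adjusted p = 2.98e-06) and 1.26-fold in wild-type cells (adjusted p = 0.0133), and the responses differed by 0.78 (SE 0.116, adjusted p = 0.000878). The wild-type rise was lost without wild-type EPZ6438 replicate 3 (adjusted p = 0.0592), wild-type DMSO replicate 2 (0.0564) or wild-type DMSO replicate 3 (0.0850) and by DESeq2 (0.0750). In DMSO the log2 fold change, K27M over wild type, was -0.39 (SE 0.066, adjusted p = 0.00455) and turned to 0.03 with the GC trend removed (adjusted p = 0.821).

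Lmx1b, a LIM-homeobox factor of midbrain dopamine and hindbrain serotonin neurons, had 6.29, 5.85 and 6.96 CPM in K27M cells with EPZ6438, 0, 0 and 0 in K27M cells with DMSO, 5.18, 9.64 and 8.85 CPM in wild-type cells with EPZ6438 and 0.0758, 0 and 0 CPM in wild-type cells with DMSO. It was detected with EPZ6438 in all 6 libraries and with DMSO in 1 of 6. The rise in K27M cells was at least 144-fold, set against a floor of 3 counts over the DMSO group (adjusted p = 9.76e-07). In wild-type cells 253 counts against 1 gave a ratio of 325 (95% exact counting interval 57.9 to 12900, adjusted p = 0.000147). Counting intervals and floors cover counting error only. The DMSO counts behind the ratios of Lmx1b and Nkx6-1 in wild-type cells and of Pax2, Pax9, Lbx1 and Shox2 in K27M cells each came from 1 library, without which the DMSO group was at 0. Pax2, a paired-domain factor of the midbrain-hindbrain boundary, eye and kidney, had 97 counts over the K27M libraries with EPZ6438 against 1 with DMSO, a ratio of 173 (95% exact counting interval 30.3 to 6890, adjusted p = 1.2e-05), and 66 counts over the wild-type libraries with EPZ6438. Lmx1a, the close relative of Lmx1b, had 18 counts with EPZ6438 and 6 with DMSO in K27M cells and was tested in no comparison.

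**Figure D4:**
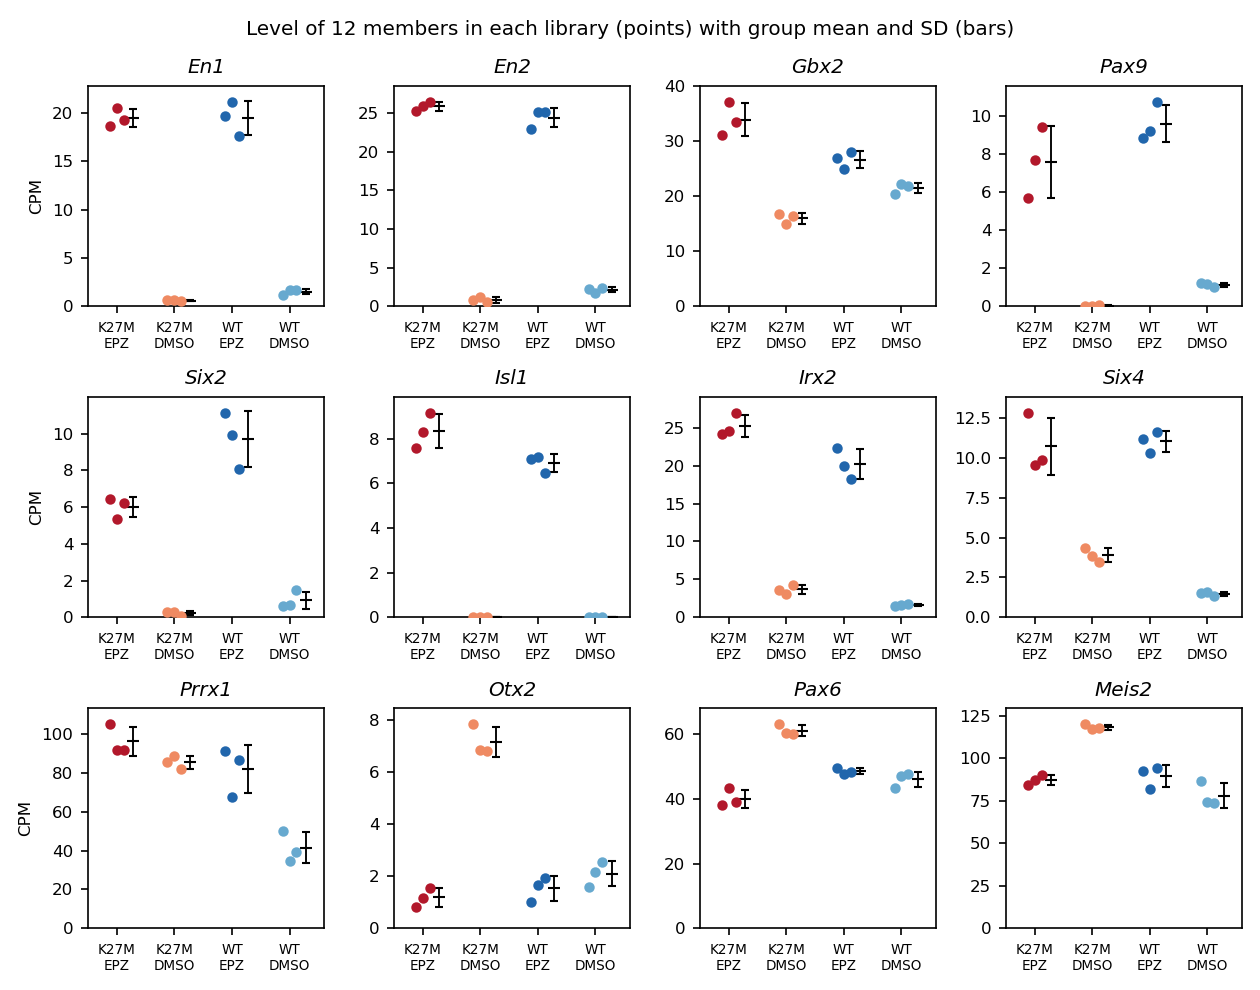
Level in CPM (vertical axis) of 12 members in each library (points) of the 4 groups, with group mean and SD (bars, n = 3). En1, En2, Pax9 and Six2 are lowest in K27M cells with DMSO, while Otx2, Pax6 and Meis2 are highest there.

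The dorsal, ventral and neuron-type group of hindbrain and spinal cord holds 12 members. With EPZ6438 7 of 9 tested rose in K27M cells and 8 of 10 in wild-type cells, and those that did not pass were Msx2 and Nkx6-2 in K27M cells and Msx2 and Irx3 in wild-type cells. Most were listed through their EPZ6438 libraries. With at least 5 counts in each DMSO library 2 of 4 rose in K27M cells and 2 of 3 in wild-type cells, and none fell. Over all such genes 27.9% rose and 28% fell in K27M cells, and 19.9% rose and 21.4% fell in wild-type cells. Pax7, a factor of dorsal neural tube and muscle progenitors, had 10.7, 10.8 and 12.5 CPM in K27M cells with EPZ6438, 0, 0 and 0 in K27M cells with DMSO, 10.9, 13.5 and 14.6 CPM in wild-type cells with EPZ6438 and 0.0758, 0 and 0.0666 CPM in wild-type cells with DMSO. Every EPZ6438 library was far above every DMSO library. Pax7 was at least 239-fold higher with EPZ6438 in K27M cells (adjusted p = 2.12e-07). In wild-type cells the ratio was 255 (95% exact counting interval 70.0 to 2110, adjusted p = 3.03e-05).

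Isl1, a LIM-homeobox factor of motor and sensory neurons, had 7.60, 8.29 and 9.13 CPM in K27M cells with EPZ6438 and 7.07, 7.19 and 6.46 CPM in wild-type cells with EPZ6438. All 6 DMSO libraries were at 0 counts. It was at least 173-fold higher in K27M cells (adjusted p = 1.39e-06) and at least 84.4-fold higher in wild-type cells (adjusted p = 0.000185). With both DMSO groups at 0, the difference of the responses could not be estimated. Lbx1, a factor of dorsal spinal interneurons and migrating muscle precursors, had 2.90, 4.27 and 3.16 CPM in K27M cells with EPZ6438, 0, 0.0880 and 0 CPM in K27M cells with DMSO, 1.89, 2.52 and 2.95 CPM in wild-type cells with EPZ6438 and 0, 0 and 0 in wild-type cells with DMSO. Its ratio in K27M cells was 117 (95% exact counting interval 31.6 to 972, adjusted p = 5.77e-06), and it was at least 32.6-fold higher in wild-type cells (adjusted p = 0.00109). Lhx1, a LIM-homeobox factor of spinal interneurons, had 20 counts over the K27M libraries with EPZ6438, 42 over the wild-type libraries with EPZ6438 and 0 over those with DMSO, at least 18-fold higher (adjusted p = 0.00165).

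Nkx6-1 and Nkx6-2 are paralogues of the ventral neural tube. Nkx6-1, which also acts in motor neuron progenitors and pancreatic beta cells, had 4.14, 5.29 and 4.97 CPM in K27M cells with EPZ6438, 0.185, 0.352 and 0.210 CPM in K27M cells with DMSO, 2.40, 1.80 and 2.04 CPM in wild-type cells with EPZ6438 and 0, 0.195 and 0 CPM in wild-type cells with DMSO. It rose 18.7-fold in K27M cells (adjusted p = 1.19e-06), and in wild-type cells 62 counts against 2 gave a ratio of 39.9 (95% exact counting interval 10.6 to 336, adjusted p = 0.00168). Under EPZ6438 Nkx6-1 was 2.34-fold higher in K27M cells (log2 fold change 1.22, SE 0.217, adjusted p = 0.0370), a call lost when any 1 of the 6 libraries was left out (adjusted p = 0.0596 to 0.174). Nkx6-2 had 4.01, 4.03 and 4.61 CPM in K27M cells with EPZ6438, 5.23, 4.71 and 5.28 CPM in K27M cells with DMSO, 5.05, 5.54 and 5.10 CPM in wild-type cells with EPZ6438 and 3.79, 3.61 and 3.20 CPM in wild-type cells with DMSO. Its log2 fold change with EPZ6438 was -0.28 in K27M cells (SE 0.133, adjusted p = 0.102) and 0.60 in wild-type cells (SE 0.166, adjusted p = 0.0256), and the responses differed by -0.85 (SE 0.183, adjusted p = 0.00590). With the GC trend removed the K27M value was -0.56 and passed as a fall (adjusted p = 0.00353). The wild-type rise was lost by DESeq2 (adjusted p = 0.137) and on leaving out any single library except wild-type DMSO replicate 1 (highest adjusted p = 0.103). In DMSO it was 1.48-fold higher in K27M cells (adjusted p = 0.0132).

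Msx1, a factor of dorsal neural tube, neural crest and limb, averaged 5.96 ± 0.400 CPM in K27M cells with EPZ6438, 0.0839 ± 0.145 in K27M cells with DMSO, 4.43 ± 1.23 in wild-type cells with EPZ6438 and 0.182 ± 0.0266 in wild-type cells with DMSO (SD, n = 3 each). It rose 62.9-fold in K27M cells (adjusted p = 6.5e-06) and 23.9-fold in wild-type cells (adjusted p = 0.000191). All 6 of its counts in K27M DMSO cells came from replicate 3. Without that library the DMSO group was at 0, the fitted log2 fold change was 9.62, a value that depends on the prior count, and the fitted difference of the responses was 4.80 (adjusted p = 0.00993) in place of 1.39 (adjusted p = 0.296). Its paralogue Msx2 stayed between 0.200 and 1.14 CPM in all 12 libraries and passed in no comparison.

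Irx3 and Irx5, Iroquois factors of neural tube, heart and limb, lie 556.1 kb apart on chromosome 8 with no coding gene between them. Irx5 had 9.12, 9.80 and 8.77 CPM in K27M cells with EPZ6438, 2.64, 2.16 and 2.98 CPM in K27M cells with DMSO, 9.97, 7.91 and 8.28 CPM in wild-type cells with EPZ6438 and 3.86, 3.90 and 3.06 CPM in wild-type cells with DMSO. It rose 3.54-fold in K27M cells (adjusted p = 3.94e-06) and 2.46-fold in wild-type cells (adjusted p = 0.00137), and the responses differed by 0.56 (SE 0.221, adjusted p = 0.0664). Irx3 had 6.42, 7.98 and 9.13 CPM in K27M cells with EPZ6438, 2.5, 3.21 and 2.35 CPM in K27M cells with DMSO, 6.44, 5.61 and 0 CPM in wild-type cells with EPZ6438 and 3.71, 3.80 and 4.40 CPM in wild-type cells with DMSO. Wild-type EPZ6438 replicate 3 alone was listed at 0. Irx3 rose 2.89-fold in K27M cells (adjusted p = 6.51e-05), with a log2 fold change of 0.07 in wild-type cells (SE 0.813, adjusted p = 0.952). Between genotypes the responses differed by 1.5 (SE 0.825, adjusted p = 0.166), and without that library by 0.91 (adjusted p = 0.0333). In DMSO Irx3 was 1.44-fold lower in K27M cells (adjusted p = 0.0367), a call lost with the GC trend removed (log2 fold change -0.05, adjusted p = 0.855), by DESeq2 (adjusted p = 0.10) and without any single library except K27M DMSO replicate 2 or wild-type DMSO replicate 1 (highest adjusted p = 0.120).

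The TALE homeobox cofactors Meis1, Meis2 and Pbx3, which bind DNA together with Hox proteins, were abundant in all 12 libraries. Meis2 had 84.5, 87.1 and 90.1 CPM in K27M cells with EPZ6438, 120, 117 and 118 CPM in K27M cells with DMSO, 92.5, 82.0 and 94.2 CPM in wild-type cells with EPZ6438 and 86.6, 74.2 and 73.5 CPM in wild-type cells with DMSO. Only the K27M DMSO libraries lay apart, above all others. Meis2 fell by 0.44 on the log2 scale with EPZ6438 in K27M cells (SE 0.039, adjusted p = 8.78e-06), and its log2 fold change in wild-type cells was 0.25 (SE 0.104, adjusted p = 0.0925; without wild-type DMSO replicate 1, 0.31 and adjusted p = 0.0126). The responses differed by -0.67 (SE 0.102, adjusted p = 0.000940), and in DMSO Meis2 was 1.55-fold higher in K27M cells (adjusted p = 0.00273).

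Pbx3 had 39.6, 38.7 and 38.2 CPM in K27M cells with EPZ6438, 55.5, 52.2 and 52.8 CPM in K27M cells with DMSO, 43.2, 42.8 and 38.9 CPM in wild-type cells with EPZ6438 and 35.7, 38.2 and 39.0 CPM in wild-type cells with DMSO. As for Meis2, the K27M DMSO libraries were the highest. Pbx3 fell by 0.46 in K27M cells (SE 0.045, adjusted p = 1.55e-05), had a log2 fold change of 0.22 in wild-type cells (adjusted p = 0.0622), and its responses differed by -0.64 (SE 0.091, adjusted p = 0.000642). Meis1 had 31.6, 31.5 and 28.4 CPM in K27M cells with EPZ6438, 48.1, 50.1 and 49.3 CPM in K27M cells with DMSO, 30.7, 33.0 and 33.5 CPM in wild-type cells with EPZ6438 and 41.4, 42.4 and 43.9 CPM in wild-type cells with DMSO. It fell in both genotypes, by 0.81 in K27M cells (SE 0.051, adjusted p = 8e-07) and by 0.37 in wild-type cells (SE 0.073, adjusted p = 0.00759). The responses of Meis1 differed by -0.34 (SE 0.087, adjusted p = 0.0125) and by -0.15 with the GC trend removed (adjusted p = 0.345). Its log2 fold change in DMSO, K27M over wild type, was 0.25 (adjusted p = 0.00590) and 0.05 with that trend removed (adjusted p = 0.430).

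Irx1 and Irx2, Iroquois neighbours 660.7 kb apart on chromosome 13 with no coding gene between them, rose with EPZ6438 in both genotypes. Irx1 had 15.3, 16 and 13.2 CPM in K27M cells with EPZ6438, 2.82, 2.07 and 2.56 CPM in K27M cells with DMSO, 13.4, 14.9 and 14.6 CPM in wild-type cells with EPZ6438 and 2.88, 4.19 and 4.26 CPM in wild-type cells with DMSO. It rose 5.97-fold in K27M cells (adjusted p = 2.32e-07) and 3.88-fold in wild-type cells (adjusted p = 0.000181). Irx2 had 24.2, 24.6 and 26.9 CPM in K27M cells with EPZ6438, 3.66, 3.08 and 4.32 CPM in K27M cells with DMSO, 22.3, 20 and 18.3 CPM in wild-type cells with EPZ6438 and 1.44, 1.56 and 1.73 CPM in wild-type cells with DMSO. It rose 6.80-fold in K27M cells (adjusted p = 4.03e-08) and 12.5-fold in wild-type cells (adjusted p = 1.45e-05).

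In DMSO these neighbours differed between genotypes in opposite directions. Irx2 was 2.31-fold higher in K27M cells (log2 fold change 1.21, SE 0.208, adjusted p = 0.00484), while Irx1 was 1.48-fold lower (-0.56, SE 0.200, adjusted p = 0.0485). The Irx1 call was lost with the GC trend removed (-0.09, adjusted p = 0.676), by DESeq2 (adjusted p = 0.108) and without any single library except wild-type DMSO replicate 1 (highest adjusted p = 0.156). The difference of the responses was -0.87 for Irx2 (SE 0.223, adjusted p = 0.0128) and 0.65 for Irx1 (SE 0.223, adjusted p = 0.0400). For Irx1 it was 0.20 with the GC trend removed (adjusted p = 0.457) and no longer passed by DESeq2 (adjusted p = 0.0559) or without any of 8 of the 12 libraries (highest adjusted p = 0.128).

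Among skeletal, craniofacial, limb and somite factors those with at least 5 counts in each DMSO library rose with EPZ6438, 4 of 4 in K27M cells and 5 of 5 in wild-type cells, beside 27.9% and 19.9% of all such genes. The other 5 tested in K27M cells (Alx1, Pax1, Pax9, Shox2 and Six2) and 3 in wild-type cells (Alx1, Alx4 and Shox2) also passed, but had fewer DMSO counts than that and were listed through their EPZ6438 libraries. Prrx1, a factor of limb and craniofacial mesenchyme also found in neural progenitors, was by far the most abundant. It had 105, 92.0 and 91.9 CPM in K27M cells with EPZ6438, 85.7, 88.8 and 82.0 CPM in K27M cells with DMSO, 91.4, 67.7 and 86.8 CPM in wild-type cells with EPZ6438 and 50.3, 34.8 and 39.5 CPM in wild-type cells with DMSO. The wild-type DMSO libraries alone stood low. Prrx1 rose 2.0-fold in wild-type cells (log2 fold change 1.0, SE 0.176, adjusted p = 0.00472) and 1.13-fold in K27M cells (0.17, SE 0.055, adjusted p = 0.0223), the K27M call being lost without K27M EPZ6438 replicate 1 (adjusted p = 0.0755), K27M DMSO replicate 1 (0.0608) or K27M DMSO replicate 3 (0.0781). The difference of the responses was -0.80 (SE 0.187, adjusted p = 0.00852), and in DMSO Prrx1 was 2.10-fold higher in K27M cells (adjusted p = 0.00258).

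Six4, a sine oculis factor of muscle and sensory placodes, had 12.8, 9.56 and 9.85 CPM in K27M cells with EPZ6438, 4.35, 3.83 and 3.48 CPM in K27M cells with DMSO, 11.2, 10.3 and 11.6 CPM in wild-type cells with EPZ6438 and 1.52, 1.56 and 1.33 CPM in wild-type cells with DMSO. In DMSO the K27M libraries lay above the wild-type libraries, and with EPZ6438 the genotypes overlapped. Six4 rose 2.78-fold in K27M cells (adjusted p = 1.82e-05) and 7.64-fold in wild-type cells (adjusted p = 3.08e-05), and the responses differed by -1.43 (SE 0.226, adjusted p = 0.00116). In DMSO it was 2.72-fold higher in K27M cells (log2 fold change 1.44, SE 0.172, adjusted p = 0.00168).

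Pax9 and Six2 stood the other way round. Pax9, a paired-domain factor of tooth, thymus and vertebral column, had 5.66, 7.66 and 9.40 CPM in K27M cells with EPZ6438, 0, 0 and 0.0839 CPM in K27M cells with DMSO, 8.84, 9.20 and 10.7 CPM in wild-type cells with EPZ6438 and 1.21, 1.17 and 0.999 CPM in wild-type cells with DMSO. K27M DMSO cells held 2 counts in all. The ratio of EPZ6438 to DMSO in K27M cells was 252 (95% exact counting interval 69.1 to 2090, adjusted p = 8.86e-07), and the rise in wild-type cells was 8.63-fold (adjusted p = 4.43e-05). The responses differed by a fitted 4.56 on the log2 scale (SE 0.657, adjusted p = 0.000746), by 6.62 without K27M DMSO replicate 3, which held both counts, and by 6.37 on transcripts listed in all 4 tables. On the transcript listed for the DMSO comparison K27M cells had 0 counts against 38 in wild-type cells, at least 21.9-fold lower (adjusted p = 0.00370).

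Six2, a factor of kidney and craniofacial mesenchyme, had 6.42, 5.37 and 6.24 CPM in K27M cells with EPZ6438, 0.278, 0.264 and 0.0839 CPM in K27M cells with DMSO, 11.1, 9.92 and 8.05 CPM in wild-type cells with EPZ6438 and 0.606, 0.683 and 1.47 CPM in wild-type cells with DMSO. Both K27M groups lay below the wild-type groups under the same treatment. Under EPZ6438 Six2 had a log2 fold change, K27M over wild type, of -0.69, which did not pass (adjusted p = 0.0725). It rose 28.2-fold in K27M cells (adjusted p = 6.37e-07) and 10.4-fold in wild-type cells (adjusted p = 0.000301). In DMSO it was 4.34-fold lower in K27M cells (log2 fold change -2.12, SE 0.543, adjusted p = 0.0169), a call that did not hold once wild-type DMSO replicate 3 was left out (-1.58, adjusted p = 0.0664). The responses differed by 1.47 (SE 0.515, adjusted p = 0.0437), a call lost with the GC trend removed (1.04, adjusted p = 0.186) and without any single library except wild-type DMSO replicates 1 and 2 (highest adjusted p = 0.190, at 0.88 without wild-type DMSO replicate 3).

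Alx1, a factor of craniofacial mesenchyme, had 11, 11.1 and 12.2 CPM in K27M cells with EPZ6438 and 8.58, 7.62 and 7.37 CPM in wild-type cells with EPZ6438, and 0 counts in all 6 DMSO libraries. It was at least 249-fold higher in K27M cells (adjusted p = 1.46e-07) and at least 66.4-fold higher in wild-type cells (adjusted p = 0.000633). The wild-type bound rests on the 1 transcript listed for that comparison, with 155 counts under EPZ6438, and the K27M bound on 2 transcripts. The bounds are therefore not compared between genotypes. Under EPZ6438 the K27M libraries lay above the wild-type libraries, with a log2 fold change of 0.55 (SE 0.114, adjusted p = 0.0628). Shox2, a factor of limb, palate and heart pacemaker, had 6.98, 5.21 and 5.79 CPM in K27M cells with EPZ6438, 0, 0.0880 and 0 CPM in K27M cells with DMSO, 7.07, 6.11 and 6.12 CPM in wild-type cells with EPZ6438 and 0, 0 and 0 in wild-type cells with DMSO. Its ratio in K27M cells was 206 (95% exact counting interval 56.3 to 1710, adjusted p = 7.3e-07), and it was at least 83.6-fold higher in wild-type cells (adjusted p = 0.000185). Alx4, the paralogue of Alx1 in limb and skull, rose 12.6-fold in K27M cells (adjusted p = 1.42e-06) and 17.6-fold in wild-type cells (adjusted p = 8.39e-05). Prrx2, the paralogue of Prrx1, rose 2.31-fold (adjusted p = 0.000234) and 3.78-fold (adjusted p = 0.00146) in the same order. Pax1, a factor of the sclerotome, was tested with EPZ6438 in K27M cells, where it rose 13.1-fold (adjusted p = 0.000181).

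**Figure D5:**
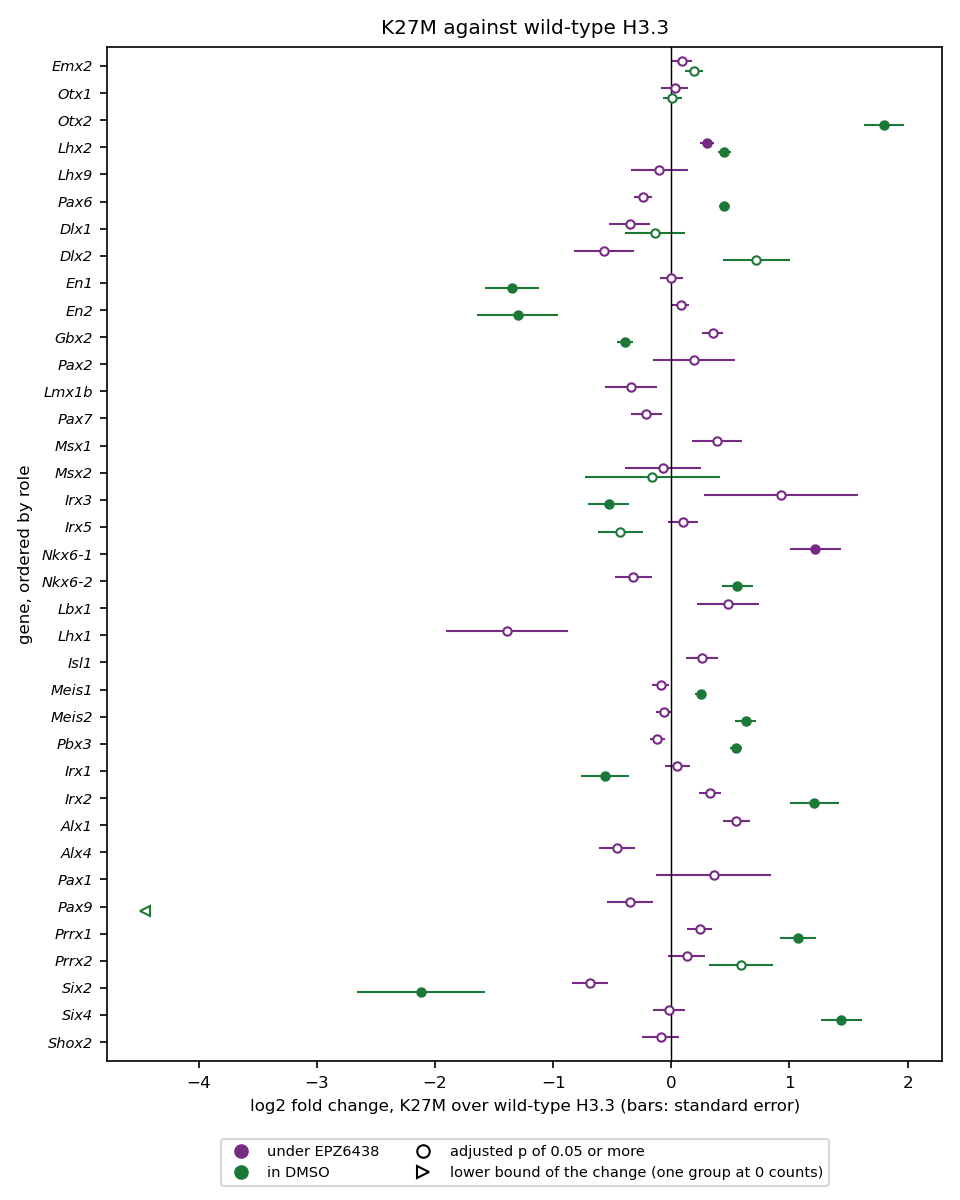
Log2 fold change of each tested member (rows, ordered by role), K27M over wild-type H3.3, under EPZ6438 (purple, upper of each pair) and in DMSO (green, lower), with standard errors, filled where the adjusted p was below 0.05. The triangle marks Pax9, with 0 counts in K27M cells in DMSO. Under EPZ6438 2 of 36 tested members passed, and in DMSO 17 of 24, Pax9 among them.

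Several members that differed between genotypes in DMSO had smaller fold changes between genotypes under EPZ6438, and the test of that change is the difference of the responses given above. En1 had a log2 fold change, K27M over wild type, of 0.00 under EPZ6438 (SE 0.096) and -1.35 in DMSO (SE 0.229), and Six4 had -0.02 (SE 0.136) and 1.44 (SE 0.172). Irx2 had 0.33 (SE 0.094, adjusted p = 0.144) and 1.21. Over the 36 members tested under EPZ6438 the median log2 fold change was 0.01, beside 0.01 over all genes tested, and fold changes ran from -1.39 for Lhx1 (SE 0.515, adjusted p = 0.237) to 1.22 for Nkx6-1. A p that misses the threshold does not show that levels are equal. Over all genes, log2 fold changes of K27M over wild type in DMSO were lower for genes of higher GC content (Spearman -0.7, a description across genes). With that trend removed 3 of the 7 members lower in K27M cells remained called, Pax9, Six2 and En1, while Gbx2, En2, Irx1 and Irx3 were lost.

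Other genes of the same families, 90 on the list used here, were counted in the same way. With EPZ6438 30 of 43 tested rose and 7 fell in K27M cells (all genes 28.9% higher, 27.3% lower). In wild-type cells 24 of 38 rose and 3 fell (all genes 21.4% higher, 20.7% lower). Of those listed, 5 in each genotype had 0 counts in DMSO and had to be higher with EPZ6438, so these counts are not read as support. In DMSO 6 of 26 were higher in K27M cells and 9 lower (all genes 29.8% higher, 30.4% lower). The difference of the responses passed upward for 6 of 40 and downward for 4 (all genes 20.2% and 16.1%). Under EPZ6438 0 of 40 differed between genotypes by edgeR, beside 1.79% of all genes (2 higher and 2 lower at an unadjusted p below 0.05, 0 by DESeq2).

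Some markers of other cell types rose with the inhibitor beside these genes, and others on the same lists did not pass or fell. The summed level of 8 mesenchymal and fibroblast markers was 49.6 to 61.5 CPM in K27M cells with EPZ6438, 4.81 to 5.97 in K27M cells with DMSO, 55.0 to 64.9 in wild-type cells with EPZ6438 and 4.93 to 6.92 in wild-type cells with DMSO. Of these, Col1a2 and Postn were at 0 or not listed in every group, Dcn and Lum at 0 or not listed in both DMSO groups, and 6 of 8 were above 0 with EPZ6438. With EPZ6438 4 of 6 tested rose in K27M cells and 3 of 5 in wild-type cells, while Col1a1 and Thy1 passed in neither genotype. The summed level of 10 neuron markers was 1528 to 1850 CPM in K27M cells with EPZ6438, 998 to 1070 in K27M cells with DMSO, 1275 to 1732 in wild-type cells with EPZ6438 and 594 to 955 in wild-type cells with DMSO, all 10 being above 0 in the first 3 groups. In wild-type cells with DMSO 8 were, with Stmn2 and Slc17a6 at 0 or not listed. With EPZ6438 7 of the 10 rose and 2 fell in K27M cells, and 6 rose and 0 fell in wild-type cells. The K27M falls were Snap25 (log2 fold change -0.55, adjusted p = 0.0229) and Elavl4 (-0.31, adjusted p = 0.00343). The 4 microglial markers summed to 1.07 to 2.05 CPM in K27M cells with EPZ6438, 0.0463 to 0.0880 in K27M cells with DMSO, 0.680 to 1.01 in wild-type cells with EPZ6438 and 0 in wild-type cells with DMSO, all of it Tmem119, with Aif1, Cx3cr1 and Csf1r at 0 or not listed in every group. The 4 endothelial markers summed to 14.0 to 17.2, 6.37 to 7.25, 14.0 to 15.8 and 7.90 to 8.75 CPM in the same order of groups, with Cdh5 and Tek at 0 or not listed throughout. The 5 oligodendrocyte markers summed to 6.92 to 9.04, 16.2 to 18.2, 5.90 to 10.6 and 7.91 to 16.9 CPM, with Mog, Mag and Mobp at 0 or not listed throughout. The part of these markers in the results was not tested.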

How the data were processed

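RNA of 12 libraries was sequenced from poly(A)-selected RNA, with no stranded kit stated, so reads of overlapping antisense genes cannot be told apart. Per the submitters' processing notes, the authors used kallisto and sleuth on GRCm38 (mm10), neither with a version in the sources used here. As deposited by the authors, 4 tables hold estimated counts per transcript, divided by a size factor per library, with p-values, q-values and the authors' sleuth effect size as a natural log. The factor was undone from the step between recurrent low values, after which 45.3% to 57.4% of low values were whole within 0.01. Sums over a gene's transcripts were rounded to whole numbers. Counts with no gene name (0.45% to 0.58%) were left out. All value columns were mapped to a library. Each comparison was fitted on its whole table with edgeR 4.0.16 (quasi-likelihood test, filterByExpr, TMM, Benjamini-Hochberg adjustment, called below 0.05) in R 4.3.3, without a replicate block. The interaction was fitted over 12 libraries on the 37407 of 44294 transcripts with a value in each. The code was tested on simulated data. For a group with 0 counts the fold is a bound against 3 counts over the group, and with 1 to 3 counts it is a ratio with an exact 95% interval. Lengths and positions came from the mouse annotation on GRCm38. The members and lists were chosen with earlier results of these data known. Named with values per library were, in each comparison, the 6 largest rises and 6 largest falls among called members with at least 30 counts, the most abundant member of each role group, and chromosomal neighbours. Alternatives were DESeq2 1.42.0, other scalings and filters, a GC correction, a replicate block, the deposited values, and leaving out each library.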

Additional observations from a re-analysis of the deposited data

Results flagged for a closer look

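The response to EPZ6438 differed between K27M and wild-type cells for 16 of the 34 members tested, by the interaction term of edgeR's quasi-likelihood test at an adjusted p below 0.05. Values are the log2 fold change in K27M cells minus that in wild-type cells. Among midbrain and hindbrain factors the difference was 1.38 for En1, 1.43 for En2 and 0.78 for Gbx2. Skeletal and craniofacial factors went both ways, with a fitted 4.56 for Pax9 (6.62 without K27M DMSO replicate 3 and 6.37 on transcripts listed in all 4 tables) and 1.47 for Six2, but -1.43 for Six4 and -0.80 for Prrx1. The 3 forebrain factors that passed, of 8 tested, had -1.93 for Otx2, -1.25 for Dlx2 and -0.65 for Pax6. Among TALE cofactors it was -0.67 for Meis2, -0.64 for Pbx3 and -0.34 for Meis1. The Iroquois neighbours differed in sign, at 0.65 for Irx1 and -0.87 for Irx2, and Nkx6-2 had -0.85. Of all genes tested 36.3% passed the same test. Over all genes these differences were higher for genes of higher GC content (Spearman 0.66, a description across genes). With that trend removed Irx1 (0.20, adjusted p = 0.457), Meis1 (-0.15, adjusted p = 0.345) and Six2 (1.04, adjusted p = 0.186) lost their calls. Lhx2 gained a call (-0.50, adjusted p = 0.00166). The calls of Otx2, Dlx2, Irx1 and Six2 were also lost on leaving out certain single libraries, as given above.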

How the results depend on the processing

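Of 2768 recomputed member values 2629 kept their side of the threshold with no called value changing sign (61 values called in neither setting changed sign), 109 lost a call, 28 gained one and 2 reversed. The reversals were Gbx2 in K27M against wild type in DMSO, at 0.03 with the GC trend removed and 0.03 with that and the replicate block. In that comparison 17 calls became 7 with the authors' deposited q-values (5 higher, 2 lower). Of these 7, Emx2 was not among the 17. Calls lost by those q-values were those of En1, En2, Six2, Irx1, Irx2, Irx3, Six4, Nkx6-2, Pax6, Meis1 and Meis2. The 7 lower calls became 4 with the replicate block, 3 with the GC trend removed and 1 with both. The 10 higher calls became 10, 13 and 12 in the same order. The block ended the lower calls of Irx1, Irx3 and Six2 and the interaction call of Six2. Rises with EPZ6438 that did not pass by the authors' q-values were those of Lhx9, Dlx1 and Prrx2 in both genotypes. Pax1 in K27M cells, and Dlx2, Gbx2 and Nkx6-2 in wild-type cells, did not pass by them either. The 2 higher calls under EPZ6438 became 1 when centred on the median gene, 4 with the GC trend removed, 1 with deposited counts as they stand, 1 in a 12-library model and 0 by the authors' deposited q-values, and GC with the block gave 1 lower. Leaving out 1 library gave 13 to 18 calls in DMSO (10 to 11 higher, 3 to 7 lower, with 4 without K27M replicate 1 and 3 without wild-type replicate 3), 0 to 1 under EPZ6438, 31 to 32 for EPZ6438 in K27M cells, 26 to 29 in wild-type cells and 14 to 16 for the interaction. Same-numbered libraries shared only a number: their deviations correlated at -0.09 to 0.54, and the replicate block gave 14, 32, 29, 2 and 15 calls in K27M against wild type in DMSO, EPZ6438 in K27M cells, EPZ6438 in wild-type cells, K27M against wild type under EPZ6438 and the interaction. Genes at a few counts are limited by depth. The cause of these changes was not tested.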
